A study of Mus musculus with 36 samples.

Results

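Trp53 encodes the transcription factor p53, and the other 9 genes described here, Mdm2, Phlda3, Eda2r, Bbc3, Bax, Gdf15, Sesn2, Ccng1 and Zmat3, are known to be transcribed from p53-bound promoters or enhancers. These 10 genes were taken by symbol from the 54347 genes of the count table, each with 1 Ensembl ID, and were put together with the butyrate response of the same libraries in view. Their butyrate and βOHB contrasts are therefore given as descriptions without p-values.

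The study asked whether β-hydroxybutyrate (βOHB), a ketone body made in fasting, alters gene expression as does butyrate, a fermentation product of gut bacteria known to inhibit histone deacetylases. βOHB carries a hydroxyl group on the beta carbon that butyrate lacks. Primary cells of male C57Bl/6 mice were grown as adipocytes from the stromal vascular fraction of inguinal fat, as macrophages from bone marrow, as skeletal myotubes and as hepatocytes, and each type was kept for 6 h in 5 mM βOHB, in 5 mM butyrate (butyric acid sodium salt) or with the PBS vehicle as control. This gave 12 groups of 3 libraries. All cells were wild type (the methods give hepatocytes the substrain C57BL/6NHsd), the adipocyte cultures pooled fat of several mice, and the labels do not say whether the 3 libraries of a group came from separate isolations, so p-values measure the spread between these libraries, which may be technical. Adipocytes and macrophages were treated in the same medium (DMEM with serum), myotubes in DM and hepatocytes in Williams E medium.

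p53 is kept scarce in unstressed cells by Mdm2, a ubiquitin ligase that p53 itself induces, and is stabilised by DNA damage, nucleotide shortage and oncogene activity. It binds paired half-sites in DNA and activates genes that halt the cell cycle, repair DNA, limit growth signalling or start apoptosis at mitochondria. Acetylation of p53 by Ep300, Crebbp and Kat5 and its removal by histone deacetylases and Sirt1 are part of how its activity is set.

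The windows from 250 bases before to 50 after the annotated RefSeq starts (GRCm38.p6) were searched for the p53 half-site consensus, a 10-base motif that is its own reverse complement, so both strands were read at once. Windows were listed for 9 of the 10 genes (12 windows). An exact half-site lay in the windows of 4 of these 9, namely Trp53, Mdm2, Bax and Ccng1, against 9.55% of all 27025 genes with a window. No exact half-site lay in the windows of Phlda3, Eda2r, Bbc3, Gdf15 or Sesn2. A pair of half-sites with at most 1 mismatch and a spacer of up to 13 bases, a search chosen after seeing the data, lay in the windows of Bax and Ccng1, against 1.24% of all genes. The 4 stretches are shown as the matches found near these starts. Capitals mark the half-site in Trp53 and Mdm2, which starts 75 and 186 bases before the start, and the pair in Bax and Ccng1, which starts 212 bases before with a 1-base spacer and 195 bases before with none.
Trp53, chr11:69580269-69580308, + strand: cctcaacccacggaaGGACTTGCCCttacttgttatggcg
Mdm2, chr10:117710920-117710959, - strand: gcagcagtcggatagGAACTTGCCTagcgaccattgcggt
Bax, chr7:45467075-45467125, - strand: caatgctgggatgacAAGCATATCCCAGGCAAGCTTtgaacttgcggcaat
Ccng1, chr11:40755447-40755496, - strand: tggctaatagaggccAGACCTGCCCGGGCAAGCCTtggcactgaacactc

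The 36 libraries held 18366289 to 23221473 estimated read counts. Levels below are CPM, that is counts divided by the library's total as adjusted by edgeR's TMM factors and put on a common scale. Cell identity was checked with 5 marker genes per type. In control libraries the summed markers stood at 8353 to 9051 CPM in adipocytes, 16540 to 16710 CPM in macrophages, 19590 to 24100 CPM in myotubes and 34750 to 36640 CPM in hepatocytes. With butyrate they stood lower at 6535 to 7881 CPM in adipocytes, 10320 to 10850 CPM in macrophages and 12490 to 17230 CPM in myotubes and higher at 39360 to 41750 CPM in hepatocytes, without overlap. Summed endothelial markers were at 64.6 to 72.1 CPM in control and 19.7 to 23.3 CPM in butyrate hepatocytes, and at 176 to 202 CPM and 117 to 134 CPM in adipocytes. Myotube libraries carried traces of RNA of other cells. Summed hepatocyte markers were at 29.5, 533 and 122 CPM in the 3 butyrate libraries and 23.1 CPM in βOHB library 3, against at most 0.176 CPM in the control libraries and the other two βOHB libraries; the highest was 1.51% of the hepatocyte level. Summed macrophage markers in myotubes were at 101 to 257 CPM in control, 40.3 to 99.3 CPM in βOHB and 15.1 to 65.7 CPM in butyrate libraries, at most 1.55% of the macrophage level. Butyrate library 3 of the myotubes stood apart, with the highest of the 3 butyrate values for 9 of the 10 genes (all but Eda2r), so the myotube log2 fold changes of the 10 genes are given with and without it. Summed markers of proliferating cells stood at 1395 to 1429 CPM in control macrophages and 558 to 657 CPM under butyrate, at 33.8 to 73.5 CPM and 15.9 to 21.1 CPM in myotubes, and at 7.50 to 12.5 CPM and 17.5 to 19.5 CPM in hepatocytes, each without overlap. With βOHB they stood at 20.5 to 25.6 CPM in myotubes, also below control, while the myotube markers stood above it at 24830 to 27050 CPM. Summed adipocyte markers were at 17.2 to 19.9 CPM in control and 58.0 to 60.2 CPM in butyrate hepatocytes. In bulk RNA, fewer cells of a type and less RNA per cell cannot be told apart. What these differences contribute to the values below was not tested.

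In the control libraries, levels per kilobase of exon model (CPM per kb, the scale on which genes can be compared) spanned the genes widely. Ccng1, which encodes cyclin G1, a recruiter of protein phosphatase 2A to Mdm2, had the highest level of the 10 on this scale in adipocytes (138 ± 3.40 CPM per kb, SD, n = 3 here and below), macrophages (73.1 ± 2.47) and myotubes (212 ± 7.48), and second to Bax in hepatocytes (52.2 ± 4.15 against 61.3 ± 7.01, with overlapping libraries). The most cell-type-bound gene was Eda2r, the receptor for ectodysplasin A2, at 60.7 ± 1.57 CPM per kb in myotubes, 6.38 ± 0.411 in adipocytes, 2.77 ± 0.117 in hepatocytes and 1.11 ± 0.0802 in macrophages, a 54.8-fold span in which no neighbouring cell types overlapped. Phlda3, a pleckstrin-homology protein that competes with Akt for membrane lipids, was likewise highest in myotubes (165 ± 8.16) and adipocytes (128 ± 6.74) and 12.4-fold lower in macrophages (13.3 ± 0.743).

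Trp53 itself was highest in hepatocytes, with 36.6 ± 0.427 CPM per kb in hepatocytes, 17.9 ± 0.502 in macrophages, 13.0 ± 0.491 in adipocytes and 12.9 ± 0.605 in myotubes and an overlap of the last pair. Mdm2 was highest in myotubes (51.0 ± 3.16) and macrophages (40.3 ± 0.363), while adipocytes (19.4 ± 1.55) and hepatocytes (18.6 ± 0.714) overlapped. The stress-hormone gene Gdf15 ranged from 11.8 ± 0.302 CPM per kb in hepatocytes to 1.53 ± 0.143 in myotubes. Among all 30 pairs of neighbouring cell types in the 10 orders, 21 were apart and 9 overlapped. Bbc3 and Zmat3 differed least between cell types, with 1.70-fold and 1.49-fold between the highest and lowest mean. Levels per length rest on the exon model: with the longest transcript in its place, 42 to 44 of the 45 gene pairs in each cell type kept their order. Among the pairs that changed were those at the top, since Phlda3 (139.6 CPM per kb) then stood above Ccng1 (138) in adipocytes and Bax (89.7) above Ccng1 (73.1) in macrophages. Orders of cell types also rest on the TMM factors. Sesn2 was at 12.8 in adipocytes and 14.9 in hepatocytes, but at 13.0 and 12.8 by library totals alone. Zmat3 was at 5.96 and 7.10, but at 6.05 and 6.10 by library totals. The pairs apart were not counted with that scaling.

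**Figure D1:**
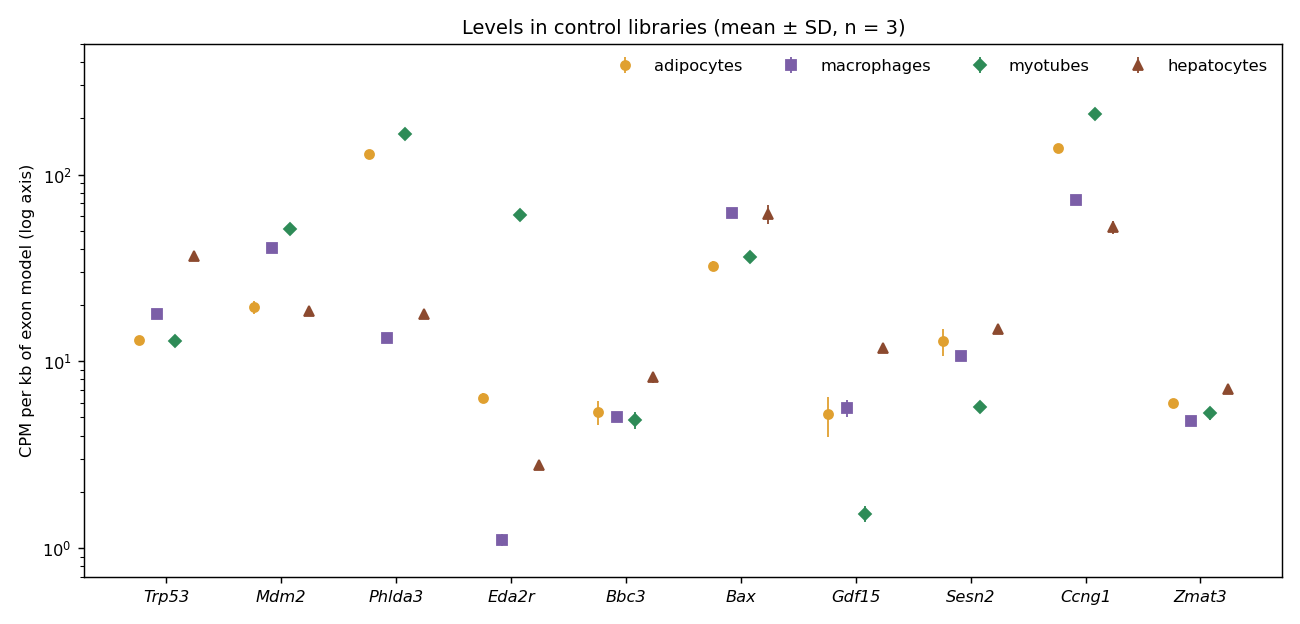
Mean CPM per kilobase of exon model in the control libraries of each cell type (log axis), with SD over 3 libraries, for Trp53 and 9 target genes. Eda2r spans 54.8-fold from macrophages to myotubes, and Ccng1 and Phlda3 stand above 100 in adipocytes and myotubes.

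Butyrate libraries held less Trp53 mRNA than control libraries in all 4 cell types. Trp53 (ENSMUSG00000059552) lies at chr11:69580359-69591873 on GRCm38, + strand. In adipocytes the control libraries read 50.4, 53.8 and 53.8 CPM, the βOHB libraries 54.1, 54.1 and 53.8 CPM and the butyrate libraries 21.7, 22.4 and 22.3 CPM. Hepatocytes, with the highest level, went from 146, 148 and 149.8 CPM in control to 46.0, 42.0 and 42.2 CPM in butyrate libraries, beside 133, 145 and 127 CPM with βOHB. No butyrate library reached its control range in either cell type. Macrophage values were 72.8, 74.0 and 70.0 CPM in control, 68.3, 76.0 and 66.7 CPM in βOHB and 28.6, 30.6 and 33.1 CPM in butyrate libraries. Myotube values were 53.9, 52.9 and 49.3 CPM in control, 46.3, 53.6 and 48.7 CPM in βOHB and 20.6, 20.1 and 26.6 CPM in butyrate libraries, the last of which was library 3. These groups did not overlap either. The log2 fold change under butyrate, ± its standard error (SE) from edgeR, was -1.25 ± 0.08 in adipocytes, -1.23 ± 0.08 in macrophages, -1.22 ± 0.08 in myotubes and -1.77 ± 0.08 in hepatocytes. The SE here and below rests on 1 estimate of spread per gene shared by all 12 groups. It does not give the spread of a single group, such as the butyrate myotubes. Of the control mean, 42.0%, 42.6%, 43.1% and 29.3% was left, in the same order. Without butyrate library 3 the myotube value was -1.35. The processed pseudogene Trp53-ps, which could take reads, was listed at no more than 0.0848 CPM in any library.

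Mdm2, the ligase that marks p53 for degradation, was lower in butyrate libraries too. Mdm2 (ENSMUSG00000020184) lies at chr10:117688875-117710758, - strand. Adipocytes went from 107, 91.2 and 98.1 CPM in control to 55.4, 53.1 and 52.5 CPM in butyrate libraries, and macrophages from 206, 203 and 206 CPM to 114, 109 and 111 CPM. The matching βOHB libraries read 97.8, 89.2 and 82.6 CPM in adipocytes and 211, 208 and 208 CPM in macrophages. Of the control mean, 54.4% was left in adipocytes and 54.4% in macrophages. In myotubes the control libraries read 263, 242 and 273 CPM, the βOHB libraries 252, 258 and 261 CPM and the butyrate libraries 170.1, 171 and 244 CPM. Library 3 alone of the butyrate libraries fell in the control range. Hepatocyte values were 98.7, 92.4 and 92.3 CPM in control, 91.2, 80.5 and 101 CPM in βOHB and 64.5, 70.4 and 67.4 CPM in butyrate libraries, without overlap between control and butyrate. The log2 fold change was -0.88 ± 0.09 in adipocytes, -0.88 ± 0.09 in macrophages, -0.49 ± 0.10 in hepatocytes and -0.41 ± 0.09 in myotubes, or -0.60 in myotubes without library 3.

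**Figure D2:**
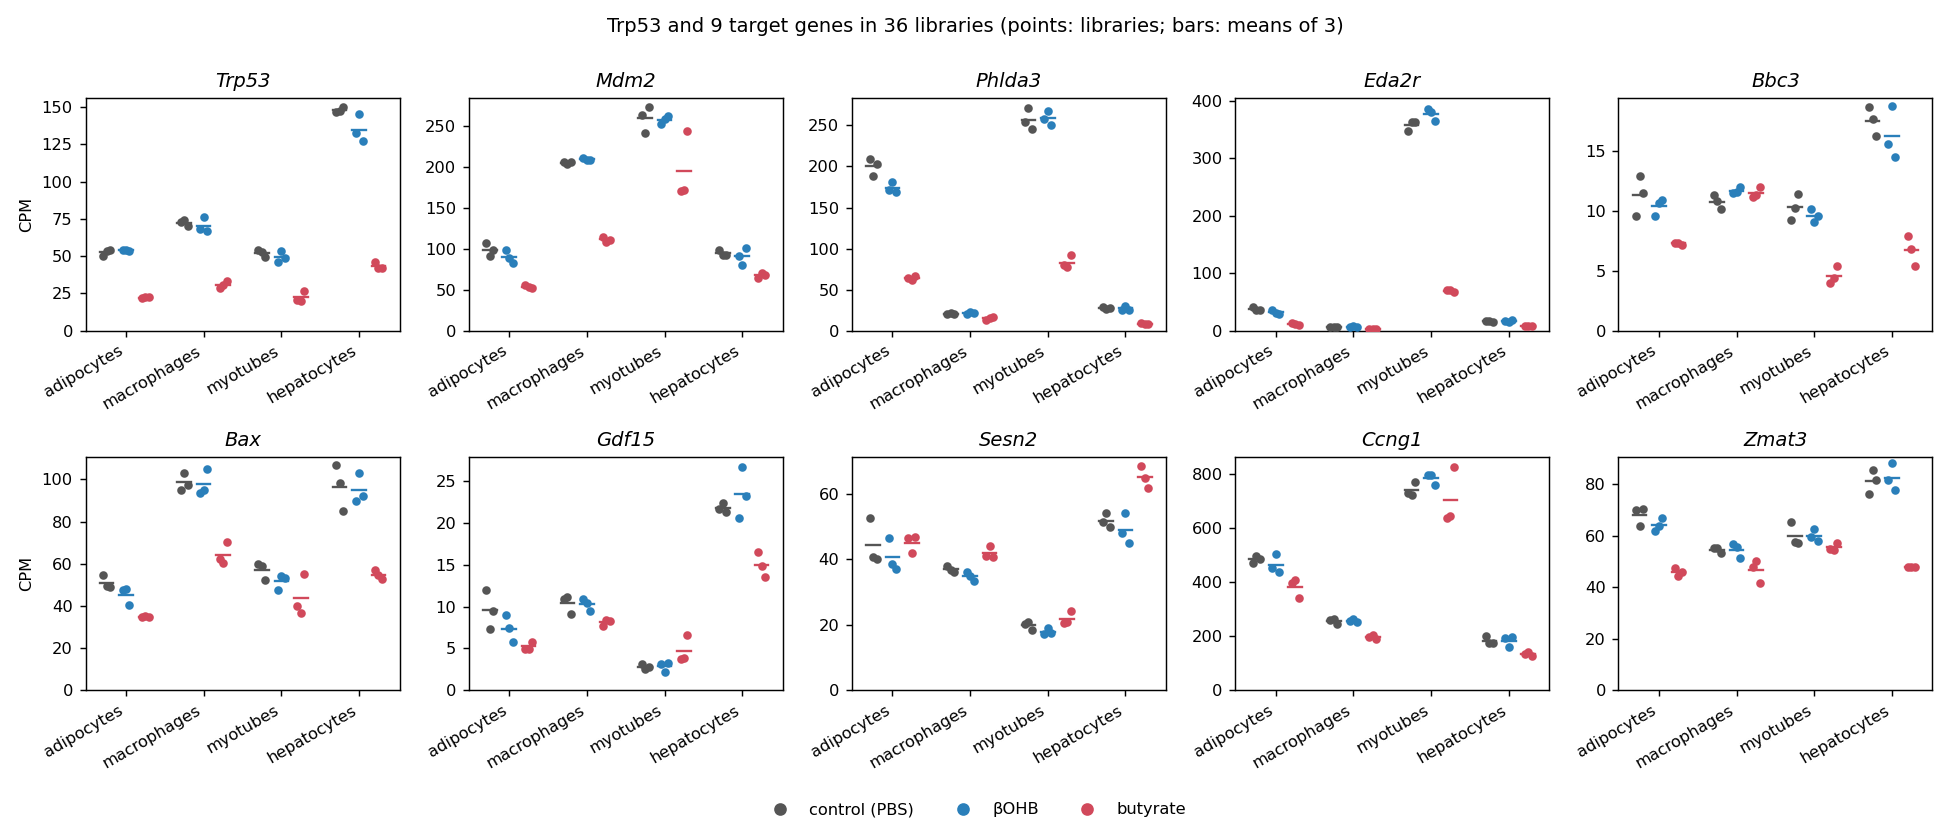
CPM of Trp53 and 9 target genes in each of the 36 libraries (points, y axis from 0) with group means (bars), by cell type and treatment. Butyrate points lie below all control points of their cell type for Trp53, Phlda3 and Eda2r, and butyrate library 3 of the myotubes lies above the other two for Mdm2, Bax and Ccng1.

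Phlda3 and Eda2r also had lower butyrate than control values in every cell type. Phlda3 (ENSMUSG00000041801) lies at chr1:135766119-135769136, + strand, and Eda2r (ENSMUSG00000034457) lies at chrX:97333840-97377216, - strand. Phlda3 read 209, 188 and 204 CPM in control and 63.6, 61.4 and 66.8 CPM in butyrate adipocytes, 254, 271 and 246 CPM and 79.6, 77.4 and 91.7 CPM in myotubes, and 29.4, 26.9 and 27.2 CPM and 9.06, 8.13 and 8.71 CPM in hepatocytes. About a like share of the control level, 31.9%, 32.3% and 31.0%, was left in these cell types although their control levels differed. Macrophages, where Phlda3 was lowest, read 20.4, 22.1 and 19.9 CPM in control and 13.0, 15.3 and 16.3 CPM in butyrate libraries, which left 71.6%. The log2 fold change was -1.65 ± 0.07 in adipocytes, -1.63 ± 0.07 in myotubes, -1.69 ± 0.09 in hepatocytes and -0.48 ± 0.08 in macrophages, where scaling by library totals alone made it -0.26. In myotubes without butyrate library 3 it was -1.71. With βOHB, Phlda3 ranged over 169 to 181 CPM in adipocytes, below all 3 control libraries, and over 20.1 to 22.4, 251 to 268 and 25.2 to 30.0 CPM in macrophages, myotubes and hepatocytes, within or across the control ranges.

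Eda2r, a receptor of the TNF receptor family, read 347, 362 and 364 CPM in control myotubes and 70.0, 70.4 and 68.1 CPM in butyrate myotubes. This was the lowest log2 fold change of any of the 10 genes in any cell type (-2.36 ± 0.08; brackets below give the same quantity), it left 19.4% of the control mean, and it was -2.35 without library 3. Adipocyte libraries went from 40.4, 35.9 and 36.5 CPM to 12.9, 11.7 and 10.1 CPM (-1.71 ± 0.09). Hepatocyte libraries went from 16.6, 16.9 and 15.6 CPM to 7.84, 8.62 and 7.27 CPM (-1.04 ± 0.10), and macrophage libraries from 7.08, 6.25 and 6.27 CPM to 2.56, 2.85 and 3.68 CPM (-1.11 ± 0.13). Control and butyrate libraries were apart in all 4 cell types. βOHB libraries spanned 364 to 386 CPM in myotubes, 29.5 to 36.1 CPM in adipocytes, 14.7 to 17.9 CPM in hepatocytes and 6.48 to 7.27 CPM in macrophages.

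Bbc3 (Puma) and Bax encode proteins of the BCL-2 family: Bbc3 neutralises the survival proteins and Bax opens the outer mitochondrial membrane. Bbc3 (ENSMUSG00000002083) lies at chr7:16308393-16318205, + strand, and Bax (ENSMUSG00000003873) lies at chr7:45461697-45466898, - strand, where 192 exon bases are shared with Gm45808, a gene listed at no more than 0.314 CPM. Bbc3 went from 18.6, 17.6 and 16.2 CPM to 7.89, 6.84 and 5.40 CPM in hepatocytes, from 9.22, 10.2 and 11.4 CPM to 3.99, 4.37 and 5.41 CPM in myotubes and from 9.57, 12.9 and 11.5 CPM to 7.34, 7.34 and 7.13 CPM in adipocytes. Macrophage libraries overlapped, with 11.3, 10.8 and 10.1 CPM in control and 11.1, 11.3 and 12.0 CPM in butyrate libraries. The log2 fold change was -1.37 ± 0.12 in hepatocytes, -1.17 ± 0.13 in myotubes, -0.64 ± 0.12 in adipocytes and 0.10 ± 0.11 in macrophages (95% confidence interval -0.14 to 0.33). In myotubes without butyrate library 3 it was -1.30. By library totals alone Bbc3 was called higher in macrophages, as given below. βOHB libraries spanned 14.5 to 18.7 CPM in hepatocytes, 9.06 to 10.2 CPM in myotubes, 9.58 to 10.9 CPM in adipocytes and 11.4 to 12.0 CPM in macrophages.

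Bax had a lower mean in the butyrate libraries of every cell type. Hepatocytes read 107, 98.1 and 84.9 CPM in control and 56.9, 54.8 and 52.5 CPM in butyrate libraries (log2 fold change -0.82 ± 0.10, as in the brackets that follow), and macrophages 95.2, 103 and 97.6 CPM and 62.1, 60.5 and 70.1 CPM (-0.62 ± 0.10, or -0.39 by library totals alone). Adipocytes read 54.5, 49.6 and 48.9 CPM and 34.6, 35.5 and 34.8 CPM (-0.54 ± 0.11). These libraries did not overlap. Myotubes read 59.8, 58.8 and 52.4 CPM and 40.0, 36.5 and 55.3 CPM (-0.38 ± 0.10), and library 3 overlapped the control range; without it the value was -0.58. βOHB libraries spanned 90.0 to 103, 93.3 to 105, 40.4 to 48.0 and 47.7 to 54.1 CPM in the same order of cell types.

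Ccng1 and Zmat3, which encodes an RNA-binding protein with zinc fingers, had lower butyrate means in every cell type after TMM scaling. Ccng1 (ENSMUSG00000020326) lies at chr11:40748552-40755311 and Zmat3 (ENSMUSG00000027663) lies at chr3:32334792-32366014, both on the - strand. Ccng1 read 473, 497 and 486 CPM in control and 398, 409 and 342 CPM in butyrate adipocytes, 261, 262 and 247 CPM and 198, 206 and 189 CPM in macrophages, and 200.1, 175 and 175 CPM and 133, 140.3 and 128 CPM in hepatocytes, with log2 fold changes of -0.34 ± 0.09, -0.38 ± 0.09 and -0.46 ± 0.09 and no overlap. In myotubes the 732, 724 and 773 CPM of the control and the 639, 647 and 829 CPM of the butyrate libraries overlapped through library 3, with -0.08 ± 0.09 over all libraries and -0.21 without it. Zmat3 had its lowest values against control in hepatocytes, from 76.5, 85.6 and 81.6 CPM to 47.8, 47.9 and 48.0 CPM (log2 fold change -0.76 ± 0.07), and adipocytes, from 69.9, 63.9 and 70.6 CPM to 47.5, 44.3 and 46.1 CPM (-0.57 ± 0.06). Its means were closer in macrophages, with 55.2, 55.1 and 53.3 CPM and 47.9, 50.3 and 41.6 CPM (-0.23 ± 0.06), and in myotubes, with 65.2, 57.6 and 57.4 CPM and 55.1, 54.7 and 57.3 CPM (-0.11 ± 0.06, or -0.13 without library 3). The macrophage differences of both genes were small enough to depend on scaling: by library totals alone they were -0.15 for Ccng1 and -0.003 for Zmat3. The myotube differences then had the opposite sign, at 0.06 for Ccng1 and 0.025 for Zmat3. βOHB libraries of Ccng1 spanned 438 to 504, 252 to 263, 763 to 798 and 161 to 198 CPM in adipocytes, macrophages, myotubes and hepatocytes, and those of Zmat3 61.9 to 67.1, 51.4 to 56.8, 57.9 to 62.7 and 77.9 to 88.2 CPM.

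Gdf15 and Sesn2 were the genes of the 10 that passed the test upwards in a cell type, and both are also known targets of ATF4, the transcription factor of the integrated stress response. Gdf15 (ENSMUSG00000038508) lies at chr8:70629393-70632456 and Sesn2 (ENSMUSG00000028893) lies at chr4:132492032-132510501, both on the - strand. Gdf15, a secreted hormone that lowers food intake, read 21.6, 22.4 and 21.3 CPM in control and 16.6, 14.9 and 13.5 CPM in butyrate hepatocytes (log2 fold change -0.54 ± 0.16), and 12.0, 7.37 and 9.50 CPM and 4.98, 4.99 and 5.79 CPM in adipocytes (-0.87 ± 0.18). Macrophages read 10.9, 11.2 and 9.17 CPM and 7.69, 8.34 and 8.29 CPM (-0.36 ± 0.17, or -0.14 by library totals alone). In myotubes, where Gdf15 was lowest, the direction was the opposite, with 3.12, 2.60 and 2.77 CPM in control and 3.70, 3.88 and 6.58 CPM in butyrate libraries (0.73 ± 0.21). Control and butyrate libraries were apart in each cell type. The myotube value was 0.42 ± 0.21 without library 3 and was then no longer past a false discovery rate (FDR) of 0.05. Hepatocyte markers were also raised in these 3 libraries, and Gdf15 was 7.69-fold higher in hepatocytes than in myotubes; the part of this RNA in the myotube value was not tested. βOHB libraries of Gdf15 spanned 5.72 to 8.94, 9.53 to 11.0, 2.22 to 3.28 and 20.6 to 26.6 CPM in adipocytes, macrophages, myotubes and hepatocytes.

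Sesn2, a leucine-binding inhibitor of mTORC1 signalling, was the one gene of the 10 whose mean was higher in butyrate than in control libraries of every cell type. Hepatocytes read 51.3, 54.2 and 49.9 CPM in control and 68.6, 64.8 and 61.6 CPM in butyrate libraries (log2 fold change 0.33 ± 0.09), without overlap. Macrophages read 37.9, 36.7 and 36.2 CPM and 41.1, 44.0 and 40.5 CPM (0.18 ± 0.09), and they were apart as well. Myotubes, with 20.3, 21.0 and 18.3 CPM and 20.6, 20.8 and 24.1 CPM (0.14 ± 0.10, or 0.06 without butyrate library 3), and adipocytes, with 52.7, 40.5 and 40.1 CPM and 46.4, 42.0 and 46.8 CPM (0.02 ± 0.09), overlapped. By library totals alone Sesn2 was called higher in macrophages and in myotubes too, as given below. βOHB libraries spanned 36.9 to 46.4, 33.3 to 36.2, 17.3 to 19.1 and 44.9 to 54.0 CPM in adipocytes, macrophages, myotubes and hepatocytes.

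Counted over the 10 genes with edgeR's quasi-likelihood test and an FDR below 0.05, 9 were lower under butyrate in adipocytes, 7 in macrophages, 6 in myotubes and 9 in hepatocytes, and 0, 0, 1 (Gdf15) and 1 (Sesn2) were higher. Of all 15340 genes tested, 30.3%, 33.2%, 33.4% and 32.4% were lower and 30.7%, 31.9%, 33.1% and 31.0% higher in the same order. Nothing is read from the difference, since the genes were chosen on this contrast. At the edge of the threshold, Gdf15 in hepatocytes (-0.54 ± 0.16) was the last inside and Gdf15 in macrophages (-0.36 ± 0.17) the first outside. Trp53, Mdm2, Phlda3, Eda2r and Bax were inside in all 4 cell types. Leaving out butyrate library 3 of the macrophages ended the call of Zmat3 there, and leaving out control library 3 added that of Gdf15. Gdf15 in macrophages was also called by limma-voom, without the filter on low counts and in a fit of the macrophage libraries alone, which called Sesn2 as well. In the myotubes, leaving out butyrate library 3 ended the call of Gdf15 and added that of Ccng1, so that 7 genes were lower and 0 higher. Scaling by library totals alone moved the median of all genes by 0.20 on the log2 scale in macrophages and 0.13 in myotubes, and relative to control it ended the calls of Ccng1 and Zmat3 in macrophages and of Bax in myotubes. It also added upward calls of Bbc3 (0.32) and Sesn2 (0.41) in macrophages and of Sesn2 (0.27) in myotubes, which left 5 genes lower and 2 higher in each of these cell types. With it, the share of all butyrate calls that were lower went from 51.0% to 33.3% in macrophages and from 50.2% to 38.2% in myotubes.

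**Figure D3:**
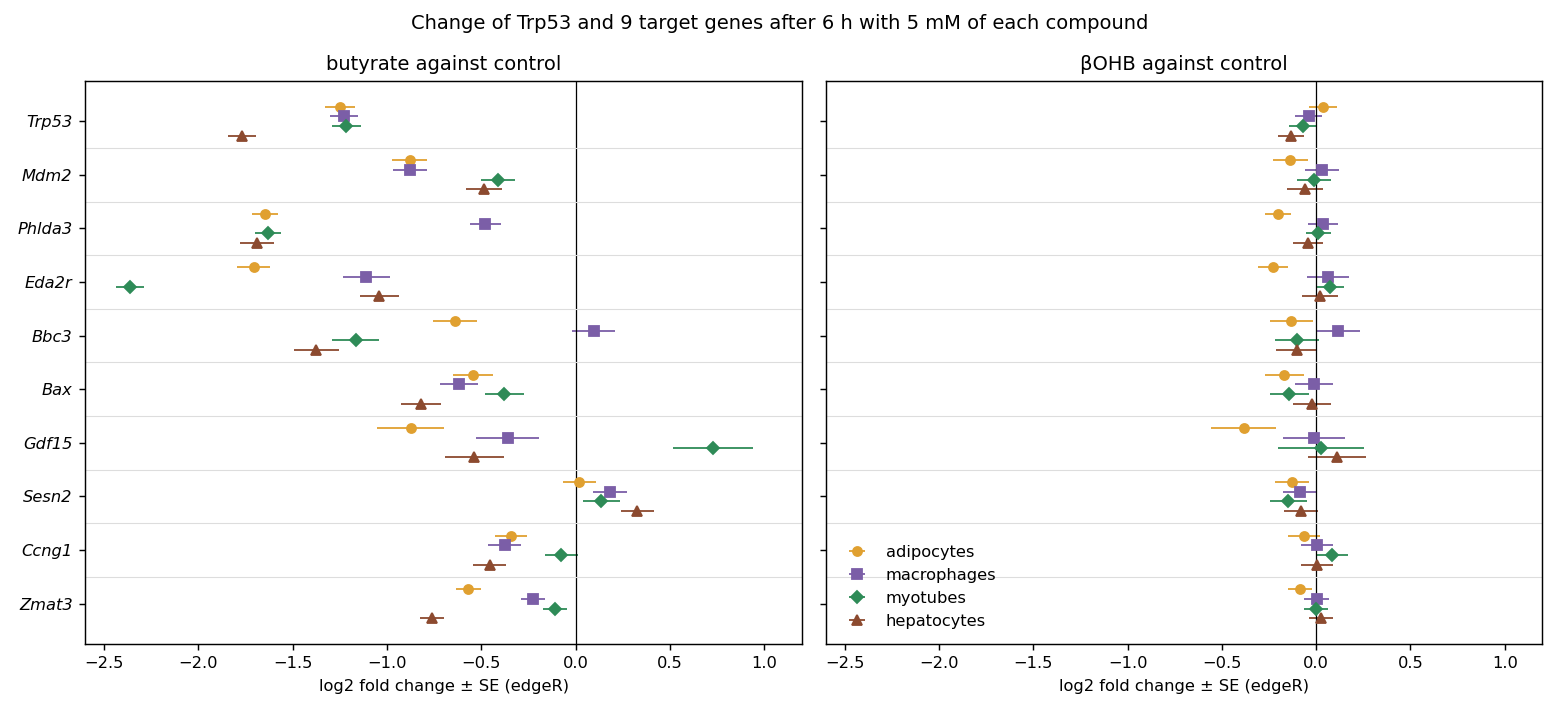
Log2 fold change ± SE (edgeR) of Trp53 and 9 target genes against control, for butyrate (left) and βOHB (right), on the same axis. Under butyrate the values run from -2.36 (Eda2r, myotubes) to 0.73 (Gdf15, myotubes); under βOHB all lie between -0.38 and 0.12.

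Under βOHB 0 of the 10 genes were called in any cell type by edgeR, and DESeq2 and limma-voom also gave 0. At an unadjusted p below 0.05, edgeR gave 3 in adipocytes and 0 in each of the other cell types. Of all tested genes, 7.15% in adipocytes, 2.33% in macrophages, 13.7% in myotubes and 5.51% in hepatocytes passed that threshold. The share of all tested genes called by edgeR was 0.00652% in adipocytes, 0.0% in macrophages, 2.91% in myotubes and 0.00652% in hepatocytes. A fit of the myotube libraries alone called 0 of all tested genes in βOHB myotubes by the same edgeR test, with 1420 at an unadjusted p below 0.05. Log2 fold changes ran from -0.38 to 0.04 in adipocytes, -0.09 to 0.12 in macrophages, -0.15 to 0.08 in myotubes and -0.13 to 0.11 in hepatocytes. For Trp53 the 95% confidence intervals of the βOHB difference were -0.11 to 0.19 in adipocytes, -0.19 to 0.11 in macrophages, -0.22 to 0.08 in myotubes and -0.28 to 0.01 in hepatocytes. βOHB and control libraries did not overlap for 2 of the 10 genes in adipocytes (Phlda3 and Bax, lower), 3 in macrophages (Mdm2 and Bbc3, higher, and Sesn2, lower), 1 in myotubes (Eda2r, higher) and 1 in hepatocytes (Trp53, lower). Among all tested genes 12.7%, 11.1%, 22.9% and 6.71% were apart in the same order. The lowest value was that of Gdf15 in adipocytes, -0.38 ± 0.17, with overlapping libraries.

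Butyrate and βOHB, which differ by the hydroxyl group, were compared directly at the same dose and time, 1 pair of compounds in 4 cell types. For Trp53 butyrate minus βOHB was -1.29 (95% confidence interval -1.45 to -1.13) in adipocytes, -1.19 (-1.34 to -1.04) in macrophages, -1.15 (-1.30 to -0.99) in myotubes and -1.64 (-1.79 to -1.48) in hepatocytes on the log2 scale. Eda2r in myotubes had the lowest value, -2.44 (-2.59 to -2.29). The intervals that included 0 were those of Bbc3 in macrophages (-0.25 to 0.21), Sesn2 in adipocytes (-0.04 to 0.33) and Ccng1 and Zmat3 in myotubes (-0.33 to 0.02 and -0.24 to 0.02). With an FDR below 0.05, 9 of the 10 genes differed between the compounds in adipocytes, 8 in macrophages, 8 in myotubes and 10 in hepatocytes, against 59.5%, 64.7%, 66.0% and 63.5% of all tested genes, from which nothing is read for the reason given. By library totals alone the share of those calls that were lower went from 49.6% to 38.2% in adipocytes, 50.8% to 32.9% in macrophages and 49.9% to 32.9% in myotubes. In myotubes without butyrate library 3, 7 genes differed, all lower with butyrate: Gdf15 and Sesn2 were no longer called and Ccng1 was. The call of Bax in myotubes also ended without butyrate library 1 or 2 or βOHB library 2 or 3. That of Gdf15 in adipocytes ended without βOHB library 1 or butyrate library 1 or 2, that of Ccng1 in adipocytes without butyrate library 3, and that of Zmat3 in macrophages without butyrate library 3, while Sesn2 was called in adipocytes without βOHB library 1. Library totals alone ended the calls of Bax, Gdf15 and Ccng1 in adipocytes, where Sesn2 was added, of Ccng1 and Zmat3 in macrophages and of Mdm2 and Bax in myotubes. Bax in myotubes was also not called by DESeq2, with RLE factors or in a fit of the myotube libraries alone, and Gdf15 in adipocytes not in a fit of the adipocyte libraries alone. Gdf15 in macrophages was called without the filter on low counts and in a fit of the macrophage libraries alone.

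A wider list of 33 known p53 targets, grouped by role and not holding the 10, had more genes higher than lower under butyrate. The 10 genes left out were mostly lower and were chosen with that response in view. The balance of the 33 is therefore not that of all p53 targets, and nothing is read from it. All 33 were tested. Under butyrate 15 rose and 7 fell in adipocytes, 17 rose and 7 fell in macrophages, 18 rose and 6 fell in myotubes, and 19 rose and 8 fell in hepatocytes (edgeR, FDR below 0.05), beside the all-gene shares given above. The median log2 fold change of the list was 0.28, 0.34, 0.31 and 0.38 in adipocytes, macrophages, myotubes and hepatocytes, and that of all tested genes between -0.01 and 0.00. Of the targets, 10 rose in all 4 cell types (Ppm1d, Pmaip1, Siva1, Ddb2, Xpc, Polk, Ercc5, Tigar, Gls2 and Dcxr), 3 fell in all 4 (Rchy1, Cop1 and Rps27l), and 7 rose in some and fell in others. Of all tested genes 12.5% rose in all 4, 12.7% fell in all 4 and 19.3% were called in opposite directions. In myotubes without butyrate library 3, 16 rose and 6 fell: Cop1, Apaf1, Ddit4 and Ephx1 were no longer called, while Perp (-0.33) fell and Sesn1 (0.22) rose. By library totals alone the list counted 16 higher and 6 lower in adipocytes, 21 and 2 in macrophages, 20 and 4 in myotubes and 19 and 7 in hepatocytes. With the same scaling 35.2%, 43.6%, 40.9% and 33.8% of all tested genes were higher and 24.7%, 21.8%, 25.2% and 29.2% lower in that order. With that scaling Rps27l was called in hepatocytes only, and its macrophage value changed sign (0.02), and Cop1 was called only in adipocytes and hepatocytes.

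Of the 10 cell cycle and feedback targets, Cdkn1a, the p21 inhibitor of cyclin-dependent kinases, was at 2223 ± 125 CPM (SD, n = 3) in control myotubes and 1502 ± 168 CPM with butyrate, and this fall (-0.57 ± 0.09, adjusted p = 2.19e-06) was its only call. In the other cell types its log2 fold change was -0.09 in adipocytes, 0.01 in macrophages and -0.11 in hepatocytes. Cdkn1a was named after its values were seen, and other targets by the size or direction of their changes. P-values of single targets here and below are therefore descriptions. Ppm1d, the Wip1 phosphatase that switches p53 off, rose in all 4 cell types, from 0.23 in macrophages to 0.99 in hepatocytes. The p53-directed ubiquitin ligases Rchy1 (Pirh2) and Cop1 fell in all 4, Rchy1 from -0.23 in hepatocytes to -1.08 in macrophages and Cop1 from -0.14 in myotubes to -0.51 in adipocytes. The myotube call of Cop1 ended without butyrate library 3 or control library 1 or 3, at -0.14 to -0.11. Plk3, a stress kinase, was among 4 targets of this group with opposite directions and fell in macrophages (-0.44) and rose in myotubes (1.00, or 0.72 without butyrate library 3) and hepatocytes (1.37). Gadd45a fell in myotubes (-0.77) and rose in the other cell types (by 0.93 in adipocytes at most). Trp53inp1 rose in macrophages (0.73) and fell in hepatocytes (-0.56). Sfn (14-3-3 sigma) rose in macrophages (1.21) and myotubes (1.08) and fell in hepatocytes (-0.82). By library totals alone the fall of Plk3 in macrophages was -0.22 and no longer called.

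Among the 10 cell death targets, Pmaip1 (Noxa), a partner of Bbc3 in neutralising survival proteins, rose in all 4 cell types. It went from 5.10 ± 0.585 to 16.6 ± 0.501 CPM in hepatocytes (1.70 ± 0.11, adjusted p = 1.57e-14 by edgeR) and from 106 ± 5.36 to 167 ± 5.58 CPM in myotubes (0.66 ± 0.07). Its means went from 34.9 to 85.8 CPM in macrophages and from 4.23 to 10.3 CPM in adipocytes. Siva1, a proapoptotic adaptor, rose from 0.67 in myotubes to 1.38 in hepatocytes. The death receptor Fas rose in macrophages (2.20 ± 0.13, from 2.30 ± 0.0870 to 10.6 ± 1.54 CPM), myotubes (1.18) and hepatocytes (0.80), while its adipocyte value was -0.17. Aen, an apoptosis-enhancing nuclease, fell in adipocytes (-0.996), macrophages (-0.72) and hepatocytes (-0.92). Dram1, a lysosomal regulator of autophagy, fell in adipocytes (-0.64) and rose in macrophages (0.69), myotubes (1.35, or 1.05 without butyrate library 3) and hepatocytes (1.32). Apaf1, the apoptosome scaffold, fell in macrophages (-0.19) and rose in myotubes (0.26), but both calls rested on single libraries: the first ended without any of 5 of the 6 libraries (all but control library 1; -0.19 to -0.15) and had the opposite sign by library totals alone (0.03), the second without butyrate library 3 or control library 2 (0.18 to 0.20).

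Of the 6 targets of DNA repair and nucleotide supply, 4 rose in adipocytes, macrophages and myotubes and 5 in hepatocytes, and 1 fell in each, beside the all-gene shares given above. Ddb2, the damaged-DNA binder of nucleotide excision repair, rose in macrophages from 3.37 ± 0.0735 to 16.7 ± 0.496 CPM (2.31 ± 0.14, adjusted p = 2.45e-15, edgeR), in myotubes by 1.91, in adipocytes by 1.11 and in hepatocytes by 0.60. Xpc, its partner in damage recognition, rose by 0.29 to 0.82, the excision nuclease Ercc5 by 0.23 to 1.09, and the translesion polymerase Polk by 0.50 to 0.75. Rps27l fell in all 4 (-0.36 in hepatocytes to -0.20 in macrophages), and the macrophage call ended without butyrate library 1 or 2 or control library 1 or 3 (-0.19 to -0.14). Of the 7 metabolic and stress targets, Tigar, a fructose bisphosphatase, rose by 0.73 to 1.33 and Gls2, the liver-type glutaminase, by 0.29 in hepatocytes, where it was abundant (55.6 ± 6.20 CPM in control), and by 1.88 to 2.24 in the other cell types from 0.446 ± 0.0451 to 0.827 ± 0.199 CPM. Dcxr, a carbonyl reductase, rose by 0.46 to 0.96, with 0.81 in myotubes and 0.525 there without butyrate library 3. Ddit4, an inhibitor of mTORC1, rose most in adipocytes (1.44 ± 0.15). Sesn1, the paralogue of Sesn2, rose in hepatocytes (2.02 ± 0.11, adjusted p = 2.87e-16) and adipocytes (1.03) and had values of -0.16 in macrophages and 0.13 in myotubes. Ephx1, a detoxifying epoxide hydrolase, rose in myotubes (0.52, or 0.21 and not called without butyrate library 3) and fell in hepatocytes (-0.29), a call that ended without any of 5 of the 6 libraries (all but control library 3; -0.30 to -0.26) and by library totals alone.

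**Figure D4:**
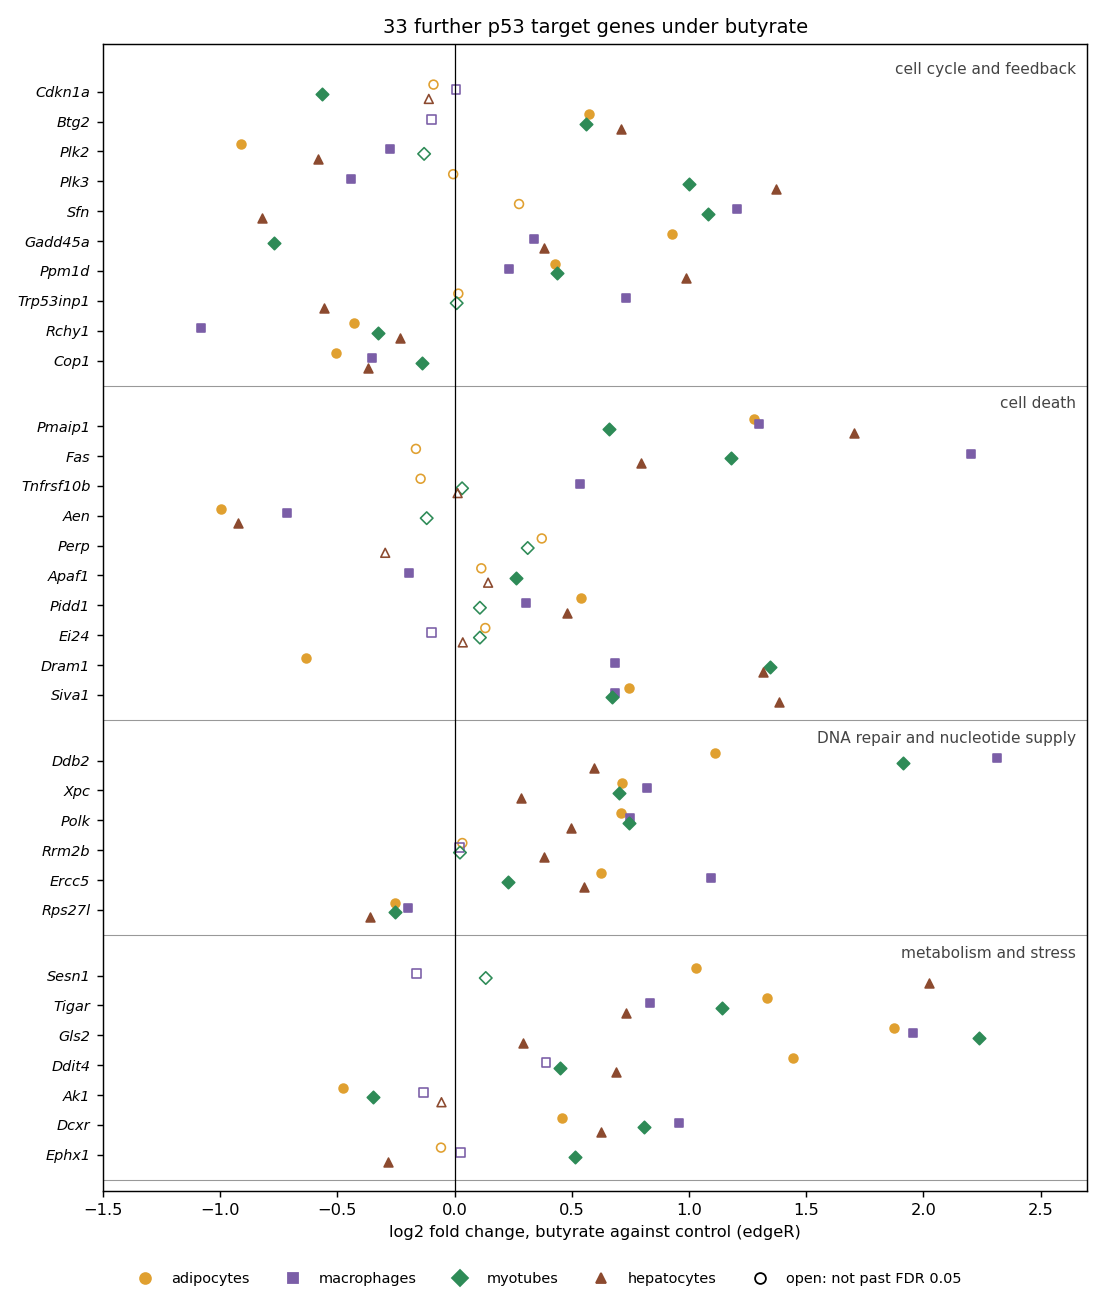
Log2 fold change under butyrate (edgeR) of the 33 further p53 targets by role and cell type; filled symbols passed an FDR of 0.05, and Perp in macrophages, at no more than 3 counts a library on average, is not drawn. Symbols of the DNA repair group lie to the right of 0 except those of Rps27l, and Gadd45a, Dram1 and Sfn have filled symbols on both sides.

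The butyrate effect differed among the 4 cell types for 26 of the 33 targets by a test of the differences themselves (edgeR, FDR below 0.05), against 74.5% of all tested genes. The count lies near that share, and nothing is read from it about p53 targets. Sesn1 (adjusted p = 1.15e-13), Fas (6.77e-12), Gadd45a (3.2e-11) and Dram1 (3.43e-11) had the smallest p-values. Under βOHB edgeR, DESeq2 and limma-voom each called 0 of the 33 in every cell type, and 2, 0, 1 and 1 had an unadjusted edgeR p below 0.05 in adipocytes, macrophages, myotubes and hepatocytes, beside the 7.15%, 2.33%, 13.7% and 5.51% of all tested genes. Between butyrate and βOHB, 22, 22, 26 and 25 of the 33 differed in the same order of cell types, beside 59.5%, 64.7%, 66.0% and 63.5% of all tested genes.

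Regulators and relatives of p53 were listed too (18 genes, of which Trp73 was too low to be tested). The acetyltransferases that modify p53 fell under butyrate in every cell type. Log2 fold changes ran, for Ep300, from -1.12 to -1.35, for Crebbp from -1.01 to -1.53 and for Kat5 from -0.63 to -1.57 (edgeR), with -0.41 for Kat5 in macrophages by library totals alone. The deacetylase Sirt1 fell most in adipocytes, from 24.5 ± 1.83 to 8.00 ± 0.299 CPM (-1.61 ± 0.08), and least in hepatocytes (-0.21, a call that ended by library totals alone and without butyrate library 3 or control library 2), and the p53 kinase Hipk2 fell most in macrophages (-1.67 ± 0.17) and least in myotubes (-0.42). The myotube call ended without butyrate library 3 or control library 2 or 3 (-0.39 to -0.36) and by library totals alone (-0.28). The ASPP proteins that steer p53 to death genes rose in all 4 cell types, Trp53bp2 by 0.63 to 1.08 and Ppp1r13b by 0.57 to 1.10. Chek2, the checkpoint kinase that phosphorylates p53, rose in adipocytes (1.46), myotubes (1.23) and hepatocytes (1.23) and fell in macrophages (-0.32, or -0.09 and not called by library totals alone). Mdm4, the relative of Mdm2, fell in adipocytes (-0.38) and myotubes (-0.35, or -0.22 by library totals alone) and rose in hepatocytes (0.59). Trp63, the p53 paralogue, was measured at 58.2 ± 6.01 CPM in control myotubes and 24.6 ± 1.72 CPM with butyrate (-1.24 ± 0.10). In macrophages it had 0 counts in each control library and 2 to 4 in the butyrate libraries, too few for a fold although the difference passed the test. In all, 5 of the 17 tested genes rose and 9 fell in adipocytes, 4 rose and 7 fell in macrophages, 3 rose and 9 fell in myotubes, and 7 rose and 5 fell in hepatocytes. Of all tested genes 30.3% to 33.4% were lower and 30.7% to 33.1% higher. By library totals alone the butyrate fall of Atr in myotubes (-0.31) was also no longer called (-0.18). Under βOHB 1 of the 17 was called, Atr in myotubes (-0.37), where 2.91% of all tested genes were. That call ended without βOHB library 2 or 3 or control library 1 (-0.35 to -0.32), and the fit of the myotube libraries alone, which called 0 genes, did not give it.

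Since Gdf15 and Sesn2 are also ATF4 targets, 9 genes of the integrated stress response were read beside them. Atf4 fell in all 4 cell types, from -0.86 in hepatocytes to -1.02 in adipocytes, and its effect was not shown to differ between them (adjusted p = 0.271, edgeR). Atf3 rose in hepatocytes (2.46 ± 0.10, from 35.3 ± 1.64 to 194 ± 3.43 CPM), myotubes (1.07) and adipocytes (0.96) and fell in macrophages (-0.78). Ddit3 (Chop) rose in hepatocytes (1.34), where Sesn2 was higher with butyrate and Gdf15 lower, and in myotubes (0.71, or 0.44 without butyrate library 3), where Gdf15 was higher. Trib3 fell in macrophages (-0.91) and hepatocytes (-0.93), and Ppp1r15a fell most in myotubes (-0.99). Of the 9 genes, 1 rose and 2 fell in adipocytes, 0 and 5 in macrophages, 3 and 3 in myotubes and 3 and 4 in hepatocytes, beside the same shares of all tested genes. The macrophage fall of Ppp1r15a (-0.26) was not called by library totals alone (-0.04) or without butyrate library 1 (-0.21) or 3 (-0.22).

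Over the 12 group means of log2 CPM, the genes with the pattern most like each of the 10 were found by Pearson's r, given as a description without a test, since the 12 points share libraries within a cell type and every gene that differs between cell types or under butyrate has such neighbours. They were Trmt112, Ccdc71 and Isg20l2 for Trp53 (r = 0.992 for the first), Slf2, Wdr26 and Ppp1r12a for Mdm2 (r = 0.977 for the first), 5031425E22Rik, Mkks and Trp53inp2 for Phlda3 (r = 0.972 for the first), Dip2c, Pfn4 and Ndufb7 for Eda2r (r = 0.989 for the first) and Bcl2l12, Dmac2 and Xpot for Bbc3 (r = 0.956 for the first). For the others they were Ywhah, Sf3b2 and Snrpb for Bax (r = 0.980 for the first), Rffl, Acsl5 and Prelid1 for Gdf15 (r = 0.981 for the first), Aldh9a1, Slc13a3 and Helz2 for Sesn2 (r = 0.987 for the first), Nap1l4, Cnr1 and Osbpl5 for Ccng1 (r = 0.995 for the first) and Zyx, Zfp771 and Kmt5a for Zmat3 (r = 0.961 for the first). Over these 30 neighbours r ran from 0.935 to 0.995, and 0 of them was one of the 10 genes or of the 33 further targets.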

How the data were processed

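RNA of 36 primary mouse cell cultures was sequenced as paired 150-base reads. The authors quantified reads with Salmon 1.2.1 against GENCODE M25 (GRCm38.p6) and summarised them to genes with tximport, and the deposited values are estimated counts per gene. Of the values above 0, 55.6% were exactly whole numbers, with no tolerance. Totals were 18366289 to 23221473 per library (median 22177562), and no replicate pair agreed within sampling noise.

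Counts were rounded and fitted with edgeR 4.0.16 (quasi-likelihood, TMM factors, 1 mean for each of the 12 groups, R 4.3.3), keeping the 15340 genes with CPM above 1 in at least 6 libraries. P-values were adjusted by Benjamini-Hochberg over all of these, and a false discovery rate below 0.05 was called. limma-voom (limma 3.58.1), DESeq2 1.42.0, other scalings, filters and sample sets were alternatives. The steps were tested on simulated data. Gene positions and exon lengths came from GENCODE M21 (GRCm38), and promoters from RefSeq (GRCm38.p6).

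The 10 genes and all lists were chosen with earlier results of these data known. Of the 33 further targets, those called in 1 direction in all cell types or in opposite directions were named, with the 3 of largest log2 fold change in each. Of the regulators and stress genes, the 2 of largest log2 fold change in each cell type were named. Cdkn1a, Aen, Ep300, Mdm4, Trp53bp2, Ppp1r13b and Atr were named after their values were seen. For each of the 10, the 3 genes of highest correlation were named.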

Additional observations from a re-analysis of the deposited data

Results flagged for a closer look

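Gdf15 was singled out because every butyrate library lay below its control libraries in adipocytes, macrophages and hepatocytes and above them in myotubes. The log2 fold changes were -0.87 in adipocytes, -0.36 in macrophages, 0.73 in myotubes and -0.54 in hepatocytes. The difference between cell types was not tested, since the gene was chosen on these values, and the myotube value was 0.42 without butyrate library 3. By library totals alone the macrophage value was -0.14.

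Of the 33 further p53 targets, 26 had a butyrate effect that differed among the 4 cell types (edgeR, FDR below 0.05), beside 74.5% of all tested genes. The count lies near that share, so nothing is read from it about p53 targets. For 7 of the 26 targets the calls went in opposite directions, with adjusted p-values for the difference of 5.56e-10 for Plk3, 5.49e-07 for Sfn, 3.2e-11 for Gadd45a, 8.16e-09 for Trp53inp1, 0.0058 for Apaf1, 3.43e-11 for Dram1 and 0.0019 for Ephx1. These 7 were picked by calls from the same fits, so a test of the difference was nearly bound to pass. Their p-values are a description. Of all tested genes 19.3% were called in opposite directions. The opposite calls of Plk3 and Apaf1 ended with scaling by library totals alone, as did that of Ephx1, and leaving out single libraries ended calls of Apaf1 and Ephx1.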

How the results depend on the processing

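Leaving out each library in turn gave 9 of the 10 genes called under butyrate in adipocytes, 6 to 8 in macrophages, 7 in myotubes and 10 in hepatocytes, and 25 to 28 of the 33 further targets with an effect that differed among cell types. At an unadjusted P below 0.001, 5 of the 10 genes differed between butyrate and βOHB in myotubes (8 at the FDR used), and 1 further target was called under βOHB in adipocytes. Without a filter on low counts, 1 was called under βOHB in myotubes. By library totals alone the macrophage log2 fold changes of Apaf1 and Rps27l had the opposite sign, at 0.031 and 0.024. The causes were not tested. Among the further targets, single libraries also ended calls of Plk2 (-0.21, without butyrate library 1) and Pidd1 (0.27 to 0.29, without control library 2 or 3) in macrophages and of Ddit4 in myotubes (0.36 to 0.44, without butyrate library 3 or control library 2 or 3). Of the alternative values of single genes, 1091 of the 10 genes' stayed within their replicate spread and 29 did not, over the contrasts of butyrate and of βOHB with control. For the further targets the values were those called under butyrate against control, of which 1314 kept direction and call, 42 lost the call and 2 changed sign. Mean counts were below 3 per library in both groups for Perp and Trp63 in macrophages and Cdkn2a and Trp63 in hepatocytes.

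Replicate numbers are shared by the groups, but same-numbered libraries did not deviate together in every pair, so they were not taken as pairs. With the number as a block, 9, 9, 7 and 10 of the 10 genes were called under butyrate in adipocytes, macrophages, myotubes and hepatocytes and 0 under βOHB. The macrophage count rose from 7 through Gdf15 and Sesn2, and Gdf15 was also called between butyrate and βOHB there. Of the further targets 22, 25, 24 and 27 were called under butyrate and 0 under βOHB. Libraries did not all correlate best with their own number.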
